A study of Mus musculus with 18 samples.

Results

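Whether the same heterozygous mutation acts differently in the ovary and in the uterus was examined gene by gene, by subtracting the ARE+/- effect in the uterus from the ARE+/- effect in the ovary. The comparison took every one of the 25552 genes that passed a filter on low counts and the 12 of 18 RNA sequencing libraries that were ARE+/- or WT. All mice were of strain C57B6/J and 20 to 25 weeks old. The groups were ovary from ARE+/- mice, ovary from WT mice, uterus from ARE+/- mice and uterus from WT mice, with 3 libraries each. ARE+/- animals carry 1 altered and 1 normal copy, and the labels name no promoter or Cre that would restrict the alteration to a cell type. The labels give ARE without defining it; from general knowledge it is the AU-rich element of Ifng. The labels give replicate numbers, but not which ovary and which uterus came from the same mouse, and the sources used here state no estrous stage. Nothing beyond the study's mention of 3 mice per genotype says how the libraries of a group relate, so p-values measure the spread between these samples. The other 6 libraries, from ARE-/- mice with 2 altered copies, were not part of the comparison and enter only where named.

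Interferon gamma is made mainly by T cells and natural killer cells and signals through its receptor and the JAK kinases. The signal switches on transcription factors such as IRF1 and CIITA, guanylate-binding proteins, immunity-related GTPases, antigen presentation and the chemokines that bind CXCR3. An AU-rich element in a transcript marks it for rapid decay, and mice that lack the element of Ifng make interferon gamma chronically. The tissues of the uterus and the ovary both change through the estrous cycle under estrogen and progesterone.

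Library totals were 38132822 to 46647171 counts in the ovary and 36039239 to 49720354 in the uterus. Levels are given as CPM, the count scaled to the size of the library with TMM factors, and are listed by replicate number, which is 1, 2 and 4 in ovary ARE+/- and 1, 2 and 3 in the other groups. The labelled organs matched their markers: 15 oocyte genes together had 191 to 304 CPM in ovary ARE+/- and 208 to 239.9 CPM in ovary WT libraries, and 3.16 to 3.75 CPM in uterus ARE+/- and 2.84 to 5.94 CPM in uterus WT libraries. Oviduct transcripts were present too: Ovgp1, the oviduct glycoprotein, had 2442, 3000.1 and 2353 CPM in ovary ARE+/- libraries, against 1267, 1801 and 1857 CPM in ovary WT libraries. Libraries of a group were not equally close. The title of uterus WT replicate 1 calls it a backup. Uterus WT replicates 1 and 3 differed by over 2-fold in 55 of 19283 genes, while uterus WT replicate 2 differed from them in 1682 and 1651 genes. Uterus ARE+/- replicates 1 and 2 differed in 136 genes, and replicate 3 differed from them in 1204 and 1086 genes. In the ovary these counts were 354 to 848 among ARE+/- libraries and 144 to 446 among WT libraries.

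Ifng, the mutated gene (ENSMUSG00000055170, located on chromosome 10, 118276951 to 118281797, plus strand in the annotation of the count tables), was higher in every ARE+/- library than in every WT library of the same organ. It had 18, 10 and 28 counts in ovary ARE+/- libraries, against 4, 0 and 4 counts in ovary WT libraries. In uterus it had 58, 36 and 70 counts in ARE+/- libraries, against 4, 6 and 0 counts in WT libraries. In the libraries with 0 counts, 3 counts would be 0.0746 CPM (ovary WT replicate 2) and 0.0764 CPM (uterus WT replicate 3). Mates were counted singly, so a fragment can add more than 1 count. The limit set by counting error only is therefore higher than these values. Ifng rose in the uterus (log2 fold change 4.00, edgeR adjusted p = 0.0233), while the ovary value of 2.73 did not pass (adjusted p = 0.204). The difference between the organs was -1.28 ± 1.37 on the log2 scale (SE), with a 95% interval of -4.28 to 1.72 (adjusted p = 0.700), an interval wide enough to hold a large difference in either direction.

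A set of genes rose in ARE+/- in both organs, and the number called as differing between the organs depended on the fit. In the ovary 575 genes passed the test (2.25% of genes tested) and in the uterus 2673 (10.5%). In the ovary 494 genes rose in ARE+/- (1.93% of genes tested) and 81 fell (0.317%), and in the uterus 1487 rose (5.82%) and 1186 fell (4.64%), at a Benjamini-Hochberg adjusted p under 0.05 in edgeR's quasi-likelihood test. At an unadjusted p under 0.05 the shares were 8.31% higher and 5.38% lower in the ovary and 13.5% higher and 13.8% lower in the uterus. A total of 355 genes rose in both organs (1.39% of genes tested), which is 71.9% of the genes that rose in the ovary and 23.9% of those that rose in the uterus. The 355 became 84, 199 and 128 without ovary WT replicates 1, 2 and 3, 173 and 177 without ovary ARE+/- replicates 1 and 4, and 173 and 195 without uterus WT replicates 1 and 3. The test of the difference, in the same fit, called 46 genes (0.18% of genes tested). DESeq2 called 994 and limma voom with quality weights 1474, so the small count belongs to this fit. With edgeR 15.2% of genes tested had an unadjusted p under 0.05 for the difference. That share is above the 0.05 that genes without differences would give. Of the 46 genes, 18 had a more positive effect in the ovary (0.0704%) and 28 had a more negative one (0.11%). This balance depended on the fit: positive differences were the more frequent with DESeq2 (557 positive and 437 negative), with limma voom (876 and 598), without uterus WT replicate 2 (1039 and 697) and without ovary ARE+/- replicate 2 (26 and 18). Among the 355 genes that rose in both organs, edgeR called 0 in the test of the difference, DESeq2 called 8 and limma voom called 4. With edgeR 29 of the 355 had an unadjusted p under 0.05, against 3873 of all genes tested (15.2%). Their median difference was 0.13, beside 0.03 for all genes tested, and the median half-width of their 95% intervals was 0.82. The 355 were chosen by values that also make up the difference, so these figures describe them only.

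**Figure D1:**
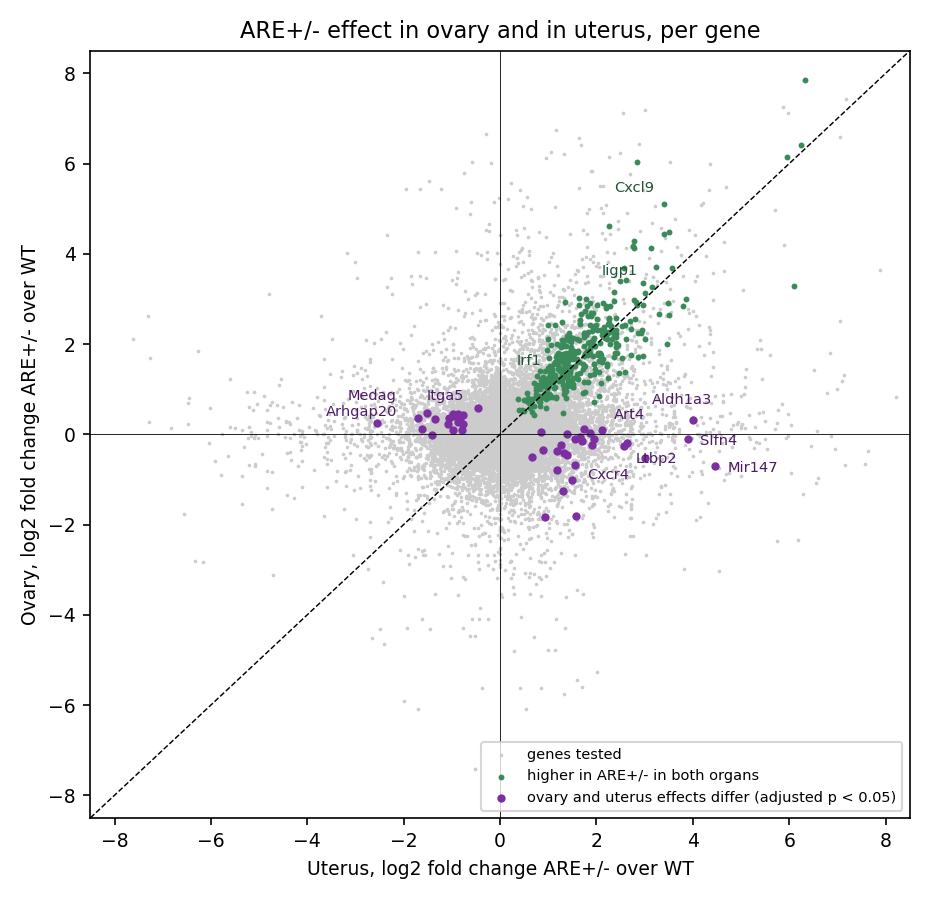
Log2 fold change of ARE+/- over WT in the ovary (vertical axis) against that in the uterus (horizontal axis), 1 point per gene tested, with 10 genes beyond the axes left out. Green points mark the 355 genes that rose in both organs and lie along the dashed line of equal effect; purple points mark the 46 genes whose effects differed, most of which lie near 0 on the ovary axis.

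The 46 differing genes were, with few exceptions, genes that passed the test in the uterus and not in the ovary. The uterus effect was larger in size than the ovary effect in 43 of them, and 5 passed the test in the ovary against 45 in the uterus. All 18 with a positive difference passed as lower in ARE+/- uterus, and 27 of the 28 with a negative difference passed as higher. The remaining gene was higher in ARE+/- uterus too but did not pass there (log2 fold change 0.92, edgeR adjusted p = 0.0886). The uterus libraries of ARE+/- and WT did not overlap in any of the 46, where 27.4% of all genes tested had no overlap in the uterus. The ovary libraries did not overlap in 20 of the 46, against 25.3% of all genes tested. The 46 were called on these same values, so nothing is read from these counts. In bulk tissue, fewer cells of a type and less RNA per cell cannot be told apart, for these genes and all others. The count of 46 depended strongly on single libraries: it was 12 and 17 without ovary ARE+/- replicates 1 and 4, 13, 16 and 14 without ovary WT replicates 1, 2 and 3, and 9 without uterus ARE+/- replicate 2. It was 12 and 16 without uterus WT replicates 1 and 3, and 1736 without uterus WT replicate 2, which leaves the close pair of uterus WT libraries; all 46 were among the 1736.

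Genes that rose in ARE+/- uterus and not in ARE+/- ovary were led by Ltbp2, which encodes latent TGF-beta binding protein 2, a matrix protein of elastic microfibrils (ENSMUSG00000002020, chromosome 12, 84829986 to 84923306, minus strand). Ltbp2 had 24.2, 33.8 and 21.6 CPM in ovary ARE+/- libraries, against 29.5, 32.4 and 33.4 CPM in ovary WT libraries. Its uterus levels were 27.4, 32.5 and 25.8 CPM in ARE+/- libraries, against 5.63, 4.53 and 4.38 CPM in WT libraries. The uterus groups stood far apart, with ARE+/- uterus within the range of the ovary libraries, while the ovary groups overlapped. The difference was -2.82 ± 0.25 (adjusted p = 0.00278), made of -0.26 in the ovary and 2.56 in the uterus. It stayed called without any 1 library (highest adjusted p 0.0206) and was the only gene called when the 6 ARE-/- libraries joined the fit (adjusted p = 0.0193). Ltbp2 overlaps D030025P21Rik, which was also called, and reads on both were counted for each without regard to strand. Shared reads cannot exceed the D030025P21Rik counts. In uterus ARE+/- libraries these were 124, 100 and 112, against 1363, 1198 and 882 counts for Ltbp2. The call of D030025P21Rik cannot be told apart from that of Ltbp2 with certainty.

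Cxcr4, the receptor for the chemokine CXCL12 (ENSMUSG00000045382, chromosome 1, 128515936 to 128520027, minus strand), had 9.04, 11.3 and 10.4 CPM in ovary ARE+/- libraries, against 10.7, 14.9 and 10.7 CPM in ovary WT libraries. In the uterus the levels were 27.7, 23.7 and 24 CPM in ARE+/- and 6.86, 6.50 and 6.88 CPM in WT libraries. The 3 uterus WT values were nearly equal and every ARE+/- value was over 3 times higher, while the ovary values interleaved. The difference was -2.14 ± 0.23 (adjusted p = 0.00492). Art4, an ADP-ribosyltransferase family member that carries the Dombrock blood group in humans (ENSMUSG00000030217, chromosome 6, 136825449 to 136834731, minus strand), had 24.8, 25.8 and 21.4 CPM in ovary ARE+/- and 19.6, 25.2 and 22.1 CPM in ovary WT libraries. Its levels in the uterus were 5.51, 4.97 and 4.97 CPM in ARE+/- and 1.26, 1.30 and 1.02 CPM in WT libraries. Art4 was thus several times higher in the ovary than in the uterus whatever the genotype, and did not pass in the ovary (0.11) but rose in the uterus (2.11; difference -2.0 ± 0.22, adjusted p = 0.00492). Mitf, a transcription factor of melanocytes, osteoclasts and mast cells, was lower in the ovary than in the uterus. It had 13, 12.9 and 11.8 CPM in ovary ARE+/- libraries, against 13, 14.3 and 11.7 CPM in ovary WT libraries. The uterus had 50.3, 48.7 and 64.1 CPM in ARE+/- libraries, against 15, 19.7 and 16.6 CPM in WT libraries. The difference of Mitf was -1.72 ± 0.20 (adjusted p = 0.00650). Cxcr4, Art4 and Mitf stayed called without any 1 library. With equal replicate numbers of a genotype taken as 1 animal, Mitf stayed called and Cxcr4 and Art4 did not. Lpcat2, an acyltransferase of phospholipid and platelet-activating factor synthesis, differed by -1.62 ± 0.21 (adjusted p = 0.0137) and Snhg11, a small nucleolar RNA host transcript, by -1.82 ± 0.23 (adjusted p = 0.0132). Both lost their call only without uterus ARE+/- replicate 2 among the fits that leave out 1 library (adjusted p = 0.0523 for Lpcat2 and 0.0506 for Snhg11). AU020206, a transcript without a named function, differed by -1.74 ± 0.19 (adjusted p = 0.00492) and kept its call without any 1 library.

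Slfn4, Aldh1a3 and Mir147 had the largest negative differences among the genes named by rule, and in each of them the uterus ARE+/- libraries were widely spread. Slfn4, a Schlafen family gene of myeloid cells, had 9.32, 4.79 and 8.88 CPM in ovary ARE+/- libraries, against 10.3, 6.93 and 7.27 CPM in ovary WT libraries. In uterus Slfn4 stood at 45, 29.6 and 12 CPM in ARE+/- libraries and 2.33, 2.02 and 1.48 CPM in WT libraries. Uterus ARE+/- replicate 3 was the lowest of its group and still above every WT library (difference -3.99 ± 0.61, adjusted p = 0.0362). Aldh1a3, which makes retinoic acid, had 8.71, 9.44 and 9.05 CPM in ovary ARE+/- libraries, against 6.47, 8.03 and 7.48 CPM in ovary WT libraries, so the ovary groups did not overlap but differed little. Uterus levels of Aldh1a3 were 21.5, 15.8 and 7.46 CPM in ARE+/- libraries, against 0.919, 0.478 and 1.40 CPM in WT libraries (difference -3.70 ± 0.55, adjusted p = 0.0306). Mir147 had 2, 2 and 1 counts in ovary ARE+/- libraries, against 2, 2 and 4 counts in ovary WT libraries. Its uterus counts were 231, 92 and 221 in ARE+/- libraries, against 8, 12 and 4 in WT libraries. Mir147 lies inside AA467197, whose reads it shares, so these counts are of the host transcript or of both; the difference was -5.17 for Mir147 (adjusted p = 0.0472) and -4.69 for AA467197 (adjusted p = 0.0670, not called). The library preparation was of total RNA with no small RNA selection named, so no mature microRNA level can be read from it.

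The other genes with a negative difference included metabolic enzymes. Gatm, the first enzyme of creatine synthesis, had 41.2 ± 7.87 CPM in ARE+/- uterus, against 10.7 ± 3.93 CPM in WT uterus (SD, n = 3 each), and differed between the organs by -2.05 ± 0.33 (adjusted p = 0.0399). Pdk4, a kinase that restrains pyruvate dehydrogenase, differed by -1.86 ± 0.31 (adjusted p = 0.0472), and Gadd45b, a stress-induced gene, by -1.86 ± 0.30 (adjusted p = 0.0399). Thbs1, thrombospondin-1, a matricellular protein that activates TGF-beta, differed by -1.49 ± 0.26 (adjusted p = 0.0497).

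Only 4 of the 46 genes passed the test in both organs, in opposite directions. Susd3, which encodes a sushi domain protein (ENSMUSG00000021384, chromosome 13, 49384166 to 49402182, minus strand), had 30.9, 31 and 27.4 CPM in ovary ARE+/- libraries, against 47.2, 53.1 and 53.7 CPM in ovary WT libraries. The uterus values were 4.85, 6.71 and 6.29 CPM in ARE+/- and 2.50, 3.14 and 2.24 CPM in WT libraries. Neither pair of groups overlapped, and Susd3 fell in the ovary (-0.79, adjusted p = 0.0192) and rose in the uterus (1.17, adjusted p = 0.00184), a difference of -1.96 ± 0.22 that held without any 1 library. Lix1 had 4.12, 5.21 and 5.27 CPM in ovary ARE+/- libraries, against 12.5, 14.5 and 7.73 CPM in ovary WT libraries. Its uterus levels were 7.08, 6.90 and 6.03 CPM in ARE+/- libraries and 1.95, 3.87 and 2.22 CPM in WT libraries (difference -2.56 ± 0.41, adjusted p = 0.0399). The other two were an unnamed gene and Etv5, an ETS transcription factor chosen after its values were seen, which had 18.9 ± 1.47 CPM in ARE+/- ovary, against 12.6 ± 0.713 CPM in WT ovary, and 29.9 ± 4.64 CPM in ARE+/- uterus, against 41.1 ± 0.913 CPM in WT uterus (SD, n = 3 each). Slc7a3, a transporter of cationic amino acids, leaned the same way as Lix1 (-1.02 in the ovary, not called, and 1.49 in the uterus; difference -2.51 ± 0.43, adjusted p = 0.0497). The calls of Lix1 and Slc7a3, and those of Slfn4, Aldh1a3, Mir147, Gatm, Pdk4, Gadd45b and Thbs1 above, held in 1 to 4 of the 12 fits that leave out 1 library each, with highest adjusted p-values from 0.105 (Aldh1a3) to 0.138 (Mir147). All 9 were called without uterus WT replicate 2, and all 9 lost their call without any 1 of the ovary ARE+/- libraries, ovary WT replicates 1 and 2, uterus ARE+/- replicate 2 or uterus WT replicate 1.

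**Figure D2:**
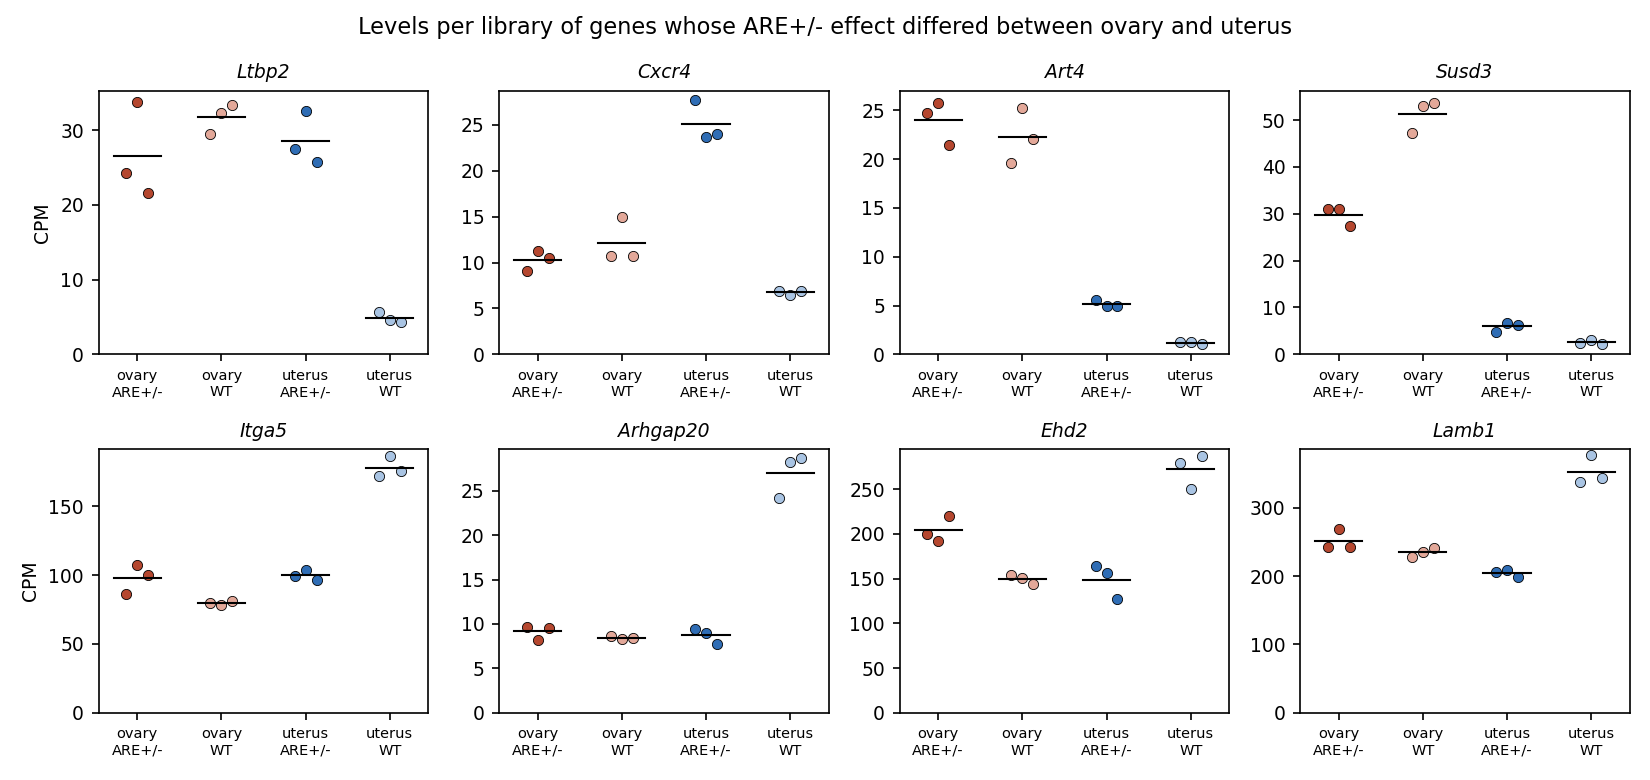
Level in CPM of 8 genes whose ARE+/- effect differed between the organs, in every library of ovary ARE+/-, ovary WT, uterus ARE+/- and uterus WT; points are libraries and lines are means of 3. In Ltbp2, Cxcr4, Art4 and Susd3 the uterus WT libraries are the lowest of the 4 groups, and in Itga5, Arhgap20, Ehd2 and Lamb1 they are the highest.

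All 18 genes with a positive difference fell in ARE+/- uterus, and Etv5 alone of them passed in the ovary. Arhgap20, a GTPase-activating protein (ENSMUSG00000053199, chromosome 9, 51676652 to 51765156, plus strand), had 9.70, 8.21 and 9.60 CPM in ovary ARE+/- libraries, against 8.66, 8.25 and 8.41 CPM in ovary WT libraries. In the uterus Arhgap20 had 9.46, 8.99 and 7.78 CPM in ARE+/- libraries, against 24.1, 28.2 and 28.7 CPM in WT libraries. The level in ARE+/- uterus was close to that of both ovary groups, and the uterus WT libraries were high (difference 1.75 ± 0.19, adjusted p = 0.00492). Itga5, the alpha-5 subunit of the fibronectin receptor (ENSMUSG00000000555, chromosome 15, 103252713 to 103275190, minus strand), had 86.7, 107 and 100.4 CPM in ovary ARE+/- libraries, against 79.6, 78.1 and 81.1 CPM in ovary WT libraries. Uterus libraries had 99.5, 104 and 96.2 CPM of Itga5 in ARE+/- and 172, 186 and 176 CPM in WT. Each ARE+/- ovary value lay above the WT values and each ARE+/- uterus value below them (difference 1.14 ± 0.13, adjusted p = 0.00492), although the ovary effect of 0.30 did not pass (adjusted p = 0.122).

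Ehd2, an ATPase at the neck of caveolae (ENSMUSG00000074364, chromosome 7, 15680883 to 15701492, minus strand), had 200.2, 192 and 220.0 CPM in ovary ARE+/- libraries, against 154, 151 and 144 CPM in ovary WT libraries. Its uterus levels were 164, 156 and 127 CPM in ARE+/- and 279, 251 and 287 CPM in WT libraries. Neither pair overlapped, in opposite directions, and the difference was 1.32 ± 0.15 (adjusted p = 0.00636), with the ovary effect of 0.45 not past the threshold (adjusted p = 0.0551). Cavin3, a coat protein of caveolae, also differed (1.19 ± 0.18, adjusted p = 0.0342); it overlaps Gm45667, which was called too. Arhgap20, Itga5 and Ehd2 stayed called without any 1 library, but not with equal replicate numbers of a genotype taken as 1 animal. Lamb1, the beta-1 chain of laminin, had 251 ± 15.4 CPM in ARE+/- ovary, against 235 ± 6.27 CPM in WT ovary, and 205 ± 4.97 CPM in ARE+/- uterus, against 353 ± 21.3 CPM in WT uterus (SD, n = 3 each). Its difference was 0.89 ± 0.12 (adjusted p = 0.0149), and the call was lost without 5 of the 12 libraries, namely ovary ARE+/- replicate 1, the 3 ovary WT libraries and uterus ARE+/- replicate 2 (highest adjusted p 0.0676). Fbn1, fibrillin-1 of the elastic microfibrils, had 148 ± 44.4 CPM in ARE+/- uterus, against 377 ± 44.7 CPM in WT uterus, with a difference of 1.68 ± 0.28 (adjusted p = 0.0472).

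The largest positive difference among the genes named by rule was that of Medag, a gene linked to adipogenesis (1.99 ± 0.32, adjusted p = 0.0405). Ramp2, a partner of the adrenomedullin receptor in vessels, differed by 1.39 ± 0.21 (adjusted p = 0.0338), and Aplnr, the apelin receptor of endothelium, by 1.32 ± 0.20 (adjusted p = 0.0313). Tubb6, a beta-tubulin, differed by 1.44 ± 0.19 (adjusted p = 0.0171), Hspb8, a small heat shock protein, by 1.15 ± 0.16 (adjusted p = 0.0244), and Fam43a by 1.06 ± 0.15 (adjusted p = 0.0274). All 6 were lower in ARE+/- uterus than in WT uterus with no overlap between the libraries. A lack of overlap in the uterus, in either direction, held for all 46 called genes and for 27.4% of all genes tested. Along with Fbn1 and Cavin3, these 6 genes were called in 3 to 6 of the 12 fits that leave out 1 library. All 8 lost their call without ovary ARE+/- replicate 1, ovary WT replicate 1, uterus ARE+/- replicate 2 or uterus WT replicate 1.

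Dnah5 and Dnah12, axonemal dynein heavy chains of motile cilia, were called in opposite directions. Dnah5 had 47.1, 55 and 47.5 CPM in ovary ARE+/- libraries, against 59.5, 46.7 and 45.5 CPM in ovary WT libraries. Uterus levels of Dnah5 were 0.986, 1.03 and 1.23 CPM in ARE+/- and 2.76, 3.37 and 2.45 CPM in WT libraries. Both genes were far higher in the ovary libraries than in the uterus, and their ovary groups overlapped. Dnah12 had 26, 13 and 25 counts in uterus ARE+/- libraries, against 2, 6 and 2 counts in uterus WT libraries. The differences were 1.39 ± 0.22 for Dnah5 (adjusted p = 0.0399) and -2.81 ± 0.46 for Dnah12 (adjusted p = 0.0447), each called in 2 of the 12 fits without 1 library, those without uterus ARE+/- replicate 3 and without uterus WT replicate 2. The 14 oviduct and surface epithelium genes summed to 3270 to 3830 CPM in ovary ARE+/- libraries and 1880 to 2493 CPM in ovary WT libraries, and whether the amount of oviduct in the samples plays a part was not tested.

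Known interferon gamma response genes rose in both organs. Irf1, an interferon-induced transcription factor, had 109.5, 86.4 and 108 CPM in ovary ARE+/- libraries, against 36.7, 47.5 and 42.2 CPM in ovary WT libraries. In the uterus it stood at 118, 107 and 171 CPM in ARE+/- libraries and 56.1, 53.6 and 43.4 CPM in WT libraries. Every ARE+/- library was above every WT library in both organs, by 1.27 in the ovary and 1.37 in the uterus on the log2 scale, and the difference was -0.11 ± 0.25 (95% interval -0.66 to 0.44, adjusted p = 0.887). Gbp2, a guanylate-binding protein that attacks intracellular pathogens, rose by 1.93 and 2.41 in ovary and uterus (interval of the difference -1.44 to 0.47). Iigp1, an immunity-related GTPase, rose by 3.26 in the ovary and 3.15 in the uterus (interval -0.89 to 1.11). The transactivators of MHC class II and class I, Ciita and Nlrc5, rose in both organs (Ciita 2.43 and 2.24, interval of the difference -0.52 to 0.91; Nlrc5 2.43 and 1.99, interval -0.06 to 0.95). So did H2-K1, a class I heavy chain, H2-Aa, a class II chain, and Psmb8, an immunoproteasome subunit, with intervals of the difference of -0.60 to 0.40, -0.73 to 0.64 and -0.06 to 0.89. For Irf1, Ciita, Nlrc5, H2-K1, H2-Aa and Psmb8 these intervals do not reach a difference of 1 on the log2 scale, a 2-fold gap between the organs. C4b, complement component 4, rose by 1.80 in the ovary and 1.36 in the uterus (interval -0.54 to 1.42).

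Cxcl9, Cxcl10 and Cxcl11 encode chemokines that bind CXCR3 and draw in T cells. Cxcl9 had 33.4, 19 and 27.2 CPM in ovary ARE+/- libraries, against 0.738, 1.04 and 0.535 CPM in ovary WT libraries. Its uterus levels were 17, 11.5 and 21.6 CPM in ARE+/- libraries and 1.72, 1.32 and 1.71 CPM in WT libraries. The ARE+/- libraries of the organs overlapped in Cxcl9, and every ovary WT value was below every uterus WT value. The difference of 1.70 ± 0.42 had a 95% interval of 0.77 to 2.63 but did not pass over all genes (adjusted p = 0.120; called with DESeq2 and without uterus WT replicate 2). Cxcl10 rose in both organs (2.54 in the ovary and 2.81 in the uterus, interval of the difference -1.53 to 1.01); its reads may include those of the overlapping Art3. Cxcl11 had 12, 4 and 0 counts in ovary ARE+/- libraries, against 2, 0 and 0 in ovary WT libraries, and 6, 2 and 8 in uterus ARE+/- libraries, against 6, 5 and 2 in uterus WT libraries, too few to be tested. Cd274, which encodes PD-L1, rose by 1.68 in the ovary and 2.53 in the uterus (difference -0.84, adjusted p = 0.271). Ido1, the tryptophan-degrading enzyme, stood at 0.329 ± 0.150 CPM in ARE+/- ovary, against 0.0823 ± 0.0753 CPM in WT ovary, and 2.77 ± 1.78 CPM in ARE+/- uterus, against 0.157 ± 0.182 CPM in WT uterus (SD, n = 3 each); the interval of its difference was -5.58 to 1.25. Of 35 response, cell and tissue genes chosen by name 34 could be tested, and in the comparison of organs edgeR called 0 of them, DESeq2 called 3 and limma voom called 1, with 8 of the 34 at an unadjusted p under 0.05 in edgeR, where 15.2% of all genes tested were.

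**Figure D3:**
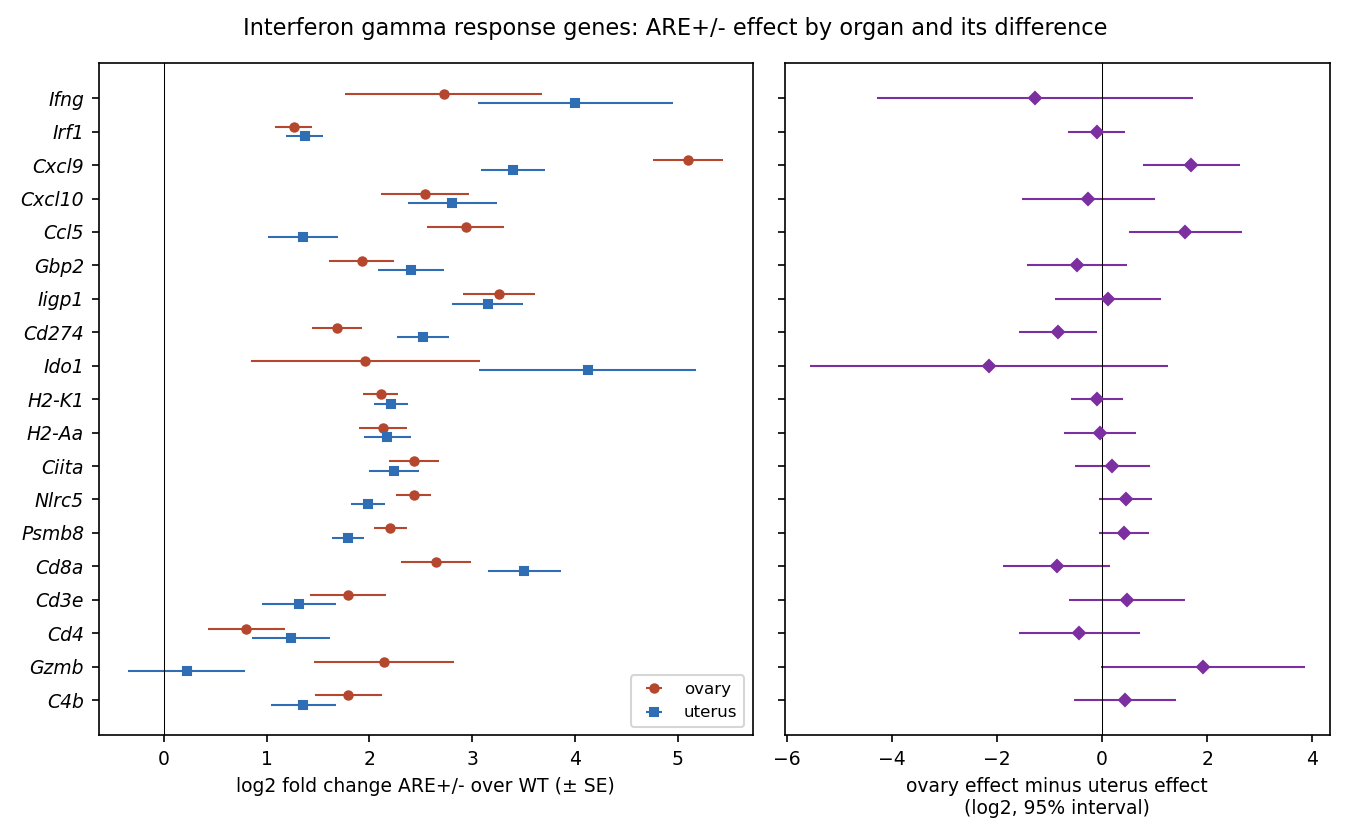
Left, log2 fold change of ARE+/- over WT with its standard error in the ovary (circles) and the uterus (squares) for 19 interferon response and lymphocyte genes, 3 libraries per group. Right, ovary effect minus uterus effect with its 95% interval; Cxcl9, Ccl5 and Cd274 have intervals that exclude 0, although their adjusted p-values of 0.120, 0.178 and 0.271 do not pass over all genes.

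In the gene families most members rose in both organs, where 1.93% of all genes tested rose in the ovary and 5.82% in the uterus. Of 11 guanylate-binding protein genes tested, 10 rose in the ovary and 11 in the uterus, with medians of 1.93 and 2.14 and a median difference of -0.33. Of 10 immunity-related GTPases, 10 rose in each organ (medians 2.58 and 2.90, median difference -0.33), and Tgtp1 among them had 109.9 ± 16 CPM in ARE+/- ovary, against 15.3 ± 2.78 CPM in WT ovary, and 262 ± 116 CPM in ARE+/- uterus, against 18.7 ± 6.44 CPM in WT uterus (SD, n = 3 each). Of 11 MHC class I genes, 8 rose in the ovary and 11 in the uterus (median difference -0.27), and of 10 MHC class II genes, 8 rose in the ovary and 9 in the uterus (median difference 0.02). H2-T23, a non-classical class I gene, stood at 1.05 in the ovary (adjusted p = 0.0522) and rose by 2.08 in the uterus; its difference of -1.03 did not pass (adjusted p = 0.201). Near-identical copies among the MHC and Tgtp genes share reads, so their members cannot be told apart with certainty. Genes known from the type I interferon and antiviral response were split: 3 of 22 rose in the ovary and 18 of 22 in the uterus. Their medians were 1.00 in the ovary and 1.54 in the uterus, and 19 of 22 single differences were below 0 with a median of -0.67, beside 0.03 for all genes, while 0 of 22 passed with edgeR, DESeq2 or limma voom and 0 had an unadjusted p under 0.05 in edgeR. The 3-against-18 split is therefore not shown to be a difference between the organs for any of these genes.

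**Figure D4:**
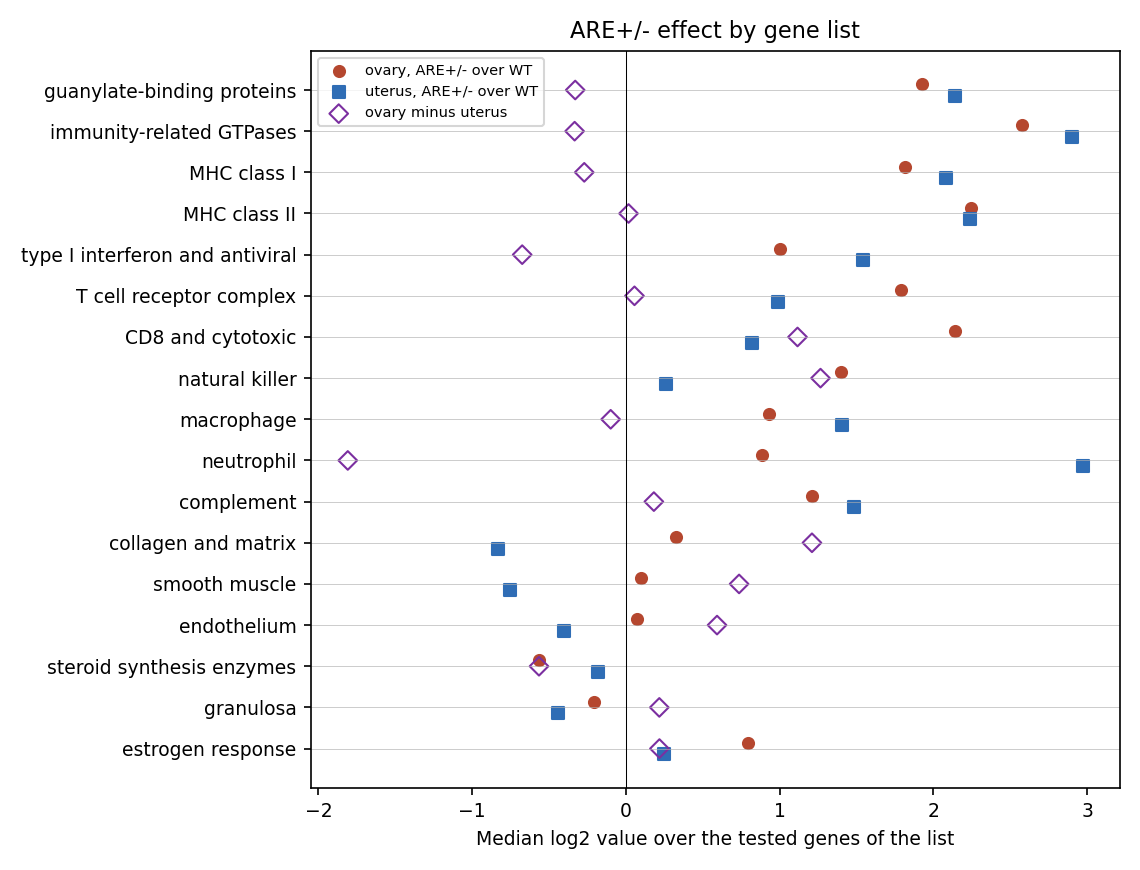
Median log2 value over the tested genes of 17 lists, for ARE+/- over WT in the ovary (circles), ARE+/- over WT in the uterus (squares) and ovary minus uterus (open diamonds). Interferon lists lie to the right in both organs, while collagen, smooth muscle and endothelium lie below 0 in the uterus and just above 0 in the ovary.

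Promoter sequence was set beside the 2 kinds of genes, those that rose in both organs and those that differed between them. The 300 bases around each gene's start (250 before and 50 after, RefSeq, GRCm38.p6) were searched for the gamma-activated site TTCNNNGAA, called GAS, and for the interferon response motif GAAANNGAAA, called ISRE, on both strands; overlap between the motifs was allowed. Of the 355 shared genes, 243 had a promoter in the table, and 37 of them (15.2%) held a GAS motif and 39 (16%) an ISRE motif. The shares over all 27025 symbols in the table were 9.55% and 3.99%, and over the 14562 tested genes with a promoter 8.45% and 3.83%. Of the 28 genes with a negative difference 18 had a promoter, and 0 held either motif. Of the 18 with a positive difference 12 had one, and 2 held GAS (16.7%) and 1 held ISRE (8.33%). Most shared genes with a promoter held no GAS motif, and most held no ISRE motif. Whether the motifs separate the 2 kinds of gene was not tested. The sequences below were picked by motif status, so they do not stand for either kind. The promoters of 3 shared response genes that hold a motif and of Ltbp2 and Cxcr4, which differ and hold neither, are shown to set the motif's place beside both kinds of gene, 5′ to 3′, with the motif in capitals:
Irf1 promoter, chr11:53769764-53770063, plus strand: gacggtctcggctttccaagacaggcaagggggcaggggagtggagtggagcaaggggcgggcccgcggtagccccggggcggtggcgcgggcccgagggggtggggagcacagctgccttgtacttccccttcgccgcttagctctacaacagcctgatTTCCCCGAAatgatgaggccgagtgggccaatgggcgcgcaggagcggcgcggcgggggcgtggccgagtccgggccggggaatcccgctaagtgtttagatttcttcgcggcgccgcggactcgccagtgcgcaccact
Psmb8 promoter, chr17:34197945-34198244, plus strand: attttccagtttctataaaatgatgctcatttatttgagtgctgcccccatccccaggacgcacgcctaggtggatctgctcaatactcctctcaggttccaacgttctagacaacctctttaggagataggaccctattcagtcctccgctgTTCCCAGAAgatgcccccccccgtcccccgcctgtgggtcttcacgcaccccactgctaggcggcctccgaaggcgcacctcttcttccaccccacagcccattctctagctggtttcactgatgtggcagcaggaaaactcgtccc
Gbp2 promoter, chr3:142620413-142620712, plus strand: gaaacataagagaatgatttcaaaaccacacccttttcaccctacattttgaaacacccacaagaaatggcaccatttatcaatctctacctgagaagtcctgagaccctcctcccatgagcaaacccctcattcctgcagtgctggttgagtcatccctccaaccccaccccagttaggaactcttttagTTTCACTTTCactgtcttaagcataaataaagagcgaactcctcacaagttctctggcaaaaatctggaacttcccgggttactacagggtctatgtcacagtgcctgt
Ltbp2 promoter, chr12:84876442-84876741, minus strand: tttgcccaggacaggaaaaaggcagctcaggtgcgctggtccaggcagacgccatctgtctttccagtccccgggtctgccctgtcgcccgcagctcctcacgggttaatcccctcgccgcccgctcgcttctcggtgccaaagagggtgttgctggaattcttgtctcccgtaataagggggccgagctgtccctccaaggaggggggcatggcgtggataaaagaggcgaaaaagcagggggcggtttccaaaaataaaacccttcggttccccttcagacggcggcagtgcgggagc
Cxcr4 promoter, chr1:128592250-128592549, minus strand: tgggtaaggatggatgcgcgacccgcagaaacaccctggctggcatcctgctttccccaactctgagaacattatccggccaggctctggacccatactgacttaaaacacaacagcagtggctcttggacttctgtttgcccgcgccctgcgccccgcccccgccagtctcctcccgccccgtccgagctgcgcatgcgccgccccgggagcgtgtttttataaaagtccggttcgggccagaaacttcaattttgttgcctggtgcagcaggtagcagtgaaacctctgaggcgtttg
Irf1 and Psmb8 hold a GAS motif and Gbp2 an ISRE motif on the opposite strand. Irf1 has a further RefSeq promoter without a motif. A match describes letters in this window, and its absence says nothing about a factor's binding elsewhere.

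Many collagen and smooth muscle genes fell in ARE+/- uterus, and with edgeR no member of either list passed the comparison of organs. Of 16 collagen and matrix genes tested, 0 rose and 8 fell in ARE+/- uterus, where 4.64% of all genes fell. In ARE+/- ovary 0 rose and 0 fell, and the medians were 0.32 in the ovary and -0.83 in the uterus. In the comparison of organs 0 of 16 passed and 12 had an unadjusted p under 0.05 with a positive difference, where 8.61% of all genes did (median 1.21, beside 0.03). Col3a1, the type III collagen chain, had 1234, 1331 and 2137 CPM in ovary ARE+/- libraries, against 978, 1193 and 1176 CPM in ovary WT libraries. Uterus levels of Col3a1 were 4078, 3371 and 1690.5 CPM in ARE+/- and 6581, 6429.9 and 5985 CPM in WT libraries. Uterus ARE+/- replicate 3 was the lowest and ovary ARE+/- replicate 4 the highest of its group, and the groups did not overlap in either organ (difference 1.55 ± 0.40, adjusted p = 0.139). Col1a1, the type I chain, differed by 1.76 ± 0.56 (adjusted p = 0.191), and Sparc, a collagen-binding matrix protein, by 1.34 ± 0.32 (adjusted p = 0.111). The count of collagen and matrix genes called was 8 without uterus WT replicate 2, 1 without uterus ARE+/- replicate 3, 10 with DESeq2 and 8 with limma voom and quality weights.

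Of 10 smooth muscle genes, 5 fell in ARE+/- uterus, where 4.64% of all genes did, and 0 changed in ARE+/- ovary. In the comparison of organs 8 had an unadjusted p under 0.05, all positive, where 8.61% of all genes did (median 0.74, beside 0.03). With edgeR 0 passed, with DESeq2 1 and with limma voom 0. Actg2, the enteric gamma actin of smooth muscle, had 209 ± 129 CPM in ARE+/- ovary, against 168 ± 18.2 CPM in WT ovary, and 217 ± 35.5 CPM in ARE+/- uterus, against 646 ± 5.89 CPM in WT uterus (SD, n = 3 each; difference 1.88 ± 0.46, adjusted p = 0.120). Myh11, the smooth muscle myosin heavy chain, differed by 0.83 ± 0.25 (adjusted p = 0.161). Of 10 endothelial genes 3 fell in the uterus, where 4.64% of all genes did, and 0 changed in the ovary. In the comparison of organs 0 of them passed with edgeR, 1 with DESeq2 and 2 with limma voom. A positive difference at an unadjusted p under 0.05 was seen in 5 (median 0.59), where 8.61% of all genes had one. The sum of estrogen response genes differed between libraries of a group. The 20 tested genes of the estrogen response list summed to 1979 to 3130 CPM in ovary ARE+/- and 1506 to 1978 CPM in ovary WT libraries. In uterus the sums were 5327, 5028 and 13349 CPM in ARE+/- replicates 1, 2 and 3, against 6083, 1580 and 5983 CPM in WT replicates 1, 2 and 3. Uterus ARE+/- replicate 3 and uterus WT replicate 2, the libraries that stand apart in their groups, are also those with the extreme sums. The part of cycle stage in the uterus differences was not tested.

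**Figure D5:**
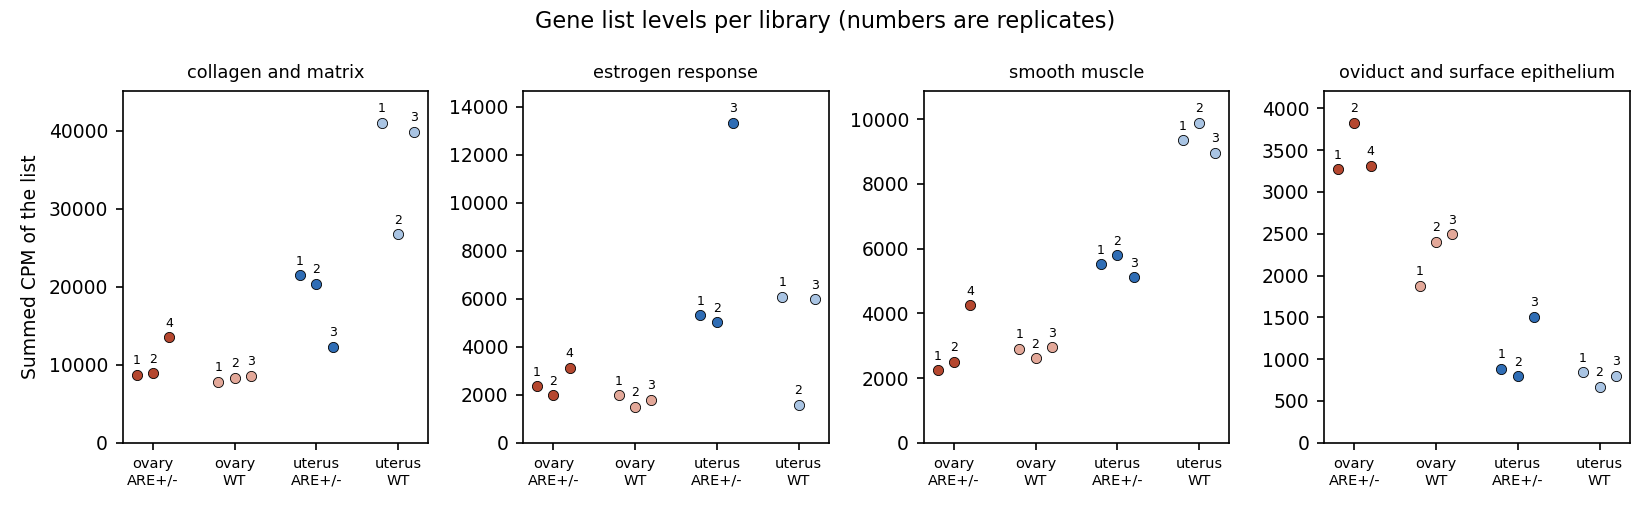
Summed CPM of 4 gene lists in each library, with the replicate number above each point, for ovary ARE+/-, ovary WT, uterus ARE+/- and uterus WT. Collagen and smooth muscle sums are lower in every ARE+/- uterus library than in every WT uterus library, the estrogen response sum separates single uterus libraries rather than genotypes, and the oviduct sum is higher in ARE+/- than in WT ovary.

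Some lymphocyte genes rose in each organ, where 1.93% of all genes tested rose in the ovary and 5.82% in the uterus. Of 15 CD8 and cytotoxic genes, 9 rose in the ovary and 4 in the uterus (medians 2.14 and 0.82). In the comparison of organs 0 passed with edgeR, 2 with DESeq2 and 0 with limma voom, while 6 had an unadjusted p under 0.05 with a positive and 1 with a negative difference, where 8.61% and 6.54% of all genes did (median 1.12, beside 0.03). Prf1, perforin of cytotoxic granules, had 2.83, 1.37 and 2.28 CPM in ovary ARE+/- libraries, against 0.344, 0.447 and 0.340 CPM in ovary WT libraries. Uterus levels of Prf1 were 9.54, 10.3 and 7.20 CPM in ARE+/- and 5.05, 9.87 and 5.04 CPM in WT libraries, and these groups overlapped. The difference was 2.07 ± 0.49 (95% interval 1.00 to 3.14, adjusted p = 0.110; called with DESeq2 and without uterus WT replicate 2). Nkg7, a cytotoxic granule protein, differed by 1.61 ± 0.42 (adjusted p = 0.136), Trbc2, a T cell receptor constant chain, by 1.43 ± 0.38 (adjusted p = 0.137), Ccl5, a chemokine of activated T cells, by 1.59 ± 0.49 (adjusted p = 0.178), and Gzmb, granzyme B, by 1.92 ± 0.88 (adjusted p = 0.335). Cd8a, the CD8 alpha chain, had a negative difference: it rose by 2.65 in the ovary and 3.51 in the uterus (difference -0.86 ± 0.47, adjusted p = 0.407). Cd3e, of the T cell receptor complex, rose in both organs (1.79 and 1.32), and Cd4 passed in neither (0.80 in the ovary and 1.24 in the uterus). Of 10 CD4 and regulatory T cell genes, 0 rose in the ovary and 1 in the uterus. All 10 differences of that list were below 0 (median -0.40). With edgeR 0 of them passed, and 2 had an unadjusted p under 0.05, where 6.54% of all genes had a negative one. Of 15 T cell receptor complex genes, which include Trbc2 and Cd3e, 7 rose in each organ. Their differences were split, with 8 above 0 and 7 below (median 0.06), and 0 passed with edgeR. At an unadjusted p under 0.05 were 4 positive and 2 negative differences, where 8.61% and 6.54% of all genes were. Of 11 natural killer genes, 3 rose in the ovary and 0 in the uterus, and in the comparison of organs 0 passed with edgeR, 2 with DESeq2 and 1 with limma voom, with 6 at an unadjusted p under 0.05 and a positive difference, where 8.61% of all genes were (median 1.27, beside 0.03). The 11 natural killer genes together had 27.6 to 43.3 CPM in ARE+/- ovary and 18.3 to 32.8 CPM in WT ovary, and 106 to 124 CPM in ARE+/- uterus and 95 to 133 CPM in WT uterus. Ighm, the immunoglobulin mu chain, rose in the ovary (3.96), where ARE+/- replicate 4 had 353 CPM, and stood at 1.93 in the uterus (difference 2.03 ± 0.98, adjusted p = 0.363).

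Among myeloid genes, Lyz2, lysozyme of macrophages and granulocytes, had 264, 245 and 229.5 CPM in ovary ARE+/- libraries, against 175, 237 and 217 CPM in ovary WT libraries. In uterus Lyz2 had 433, 563 and 416 CPM in ARE+/- libraries, against 195, 267 and 181 CPM in WT libraries. The uterus groups stood apart and the ovary groups overlapped, with a difference of -0.90 ± 0.24 (adjusted p = 0.139; called with DESeq2, with limma voom and without uterus WT replicate 2). Csf3r, the receptor for granulocyte colony-stimulating factor, rose in both organs (1.74 in the ovary and 2.97 in the uterus), with a difference of -1.23 ± 0.52 (adjusted p = 0.296). Of 9 neutrophil genes tested, 2 rose in the ovary and 5 in the uterus, 3 had an unadjusted p under 0.05 with a negative difference, where 6.54% of all genes did, and the median difference was -1.81. Their sum was 22.9 to 31 CPM in ovary ARE+/- libraries, against 13.9 to 21.4 CPM in ovary WT libraries, and 455, 341 and 152 CPM in uterus ARE+/- replicates 1, 2 and 3, against 39.8 to 70.6 CPM in uterus WT libraries. Of 15 macrophage genes, 7 rose in the ovary and 9 in the uterus, with a median difference of -0.10. Over all genes tested, 1.93% rose in the ovary and 5.82% in the uterus. The lists of cell type markers use genes that several tissues share, so a rise of a list is not a count of cells.

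Of the genes of organ function described here none was called by edgeR in the comparison of organs, while DESeq2 called Gabrp and Igf1. Star, which brings cholesterol into mitochondria for steroid synthesis, had 407, 592 and 69.7 CPM in ovary ARE+/- libraries, against 583, 3178 and 384 CPM in ovary WT libraries. The groups overlapped, and ovary WT replicate 2 was over 5 times as high as the other WT libraries. Cyp11a1, the first enzyme of steroid synthesis, had 3186, 5353 and 1772 CPM in ovary ARE+/- and 4994, 5097 and 4230.4 CPM in ovary WT libraries. In the uterus Star was at 8.59, 9.91 and 9.77 CPM in ARE+/- and 9.79, 9.21 and 11.6 CPM in WT libraries, and Cyp11a1 and Lhcgr, the luteinizing hormone receptor, were at 3.13 CPM or lower. The uterus side of the differences of Cyp11a1 and Lhcgr therefore rests on low levels. Star changed little in the uterus, so its difference comes mainly from the ovary, where WT replicate 2 stood out. The differences of Star, Cyp11a1 and Lhcgr were -1.84, -1.81 and -0.78 (adjusted p = 0.492, 0.405 and 0.788). Inha, the inhibin alpha subunit of granulosa cells, differed by -0.78 ± 0.31 (adjusted p = 0.270). Pgr and Esr1, the progesterone and estrogen receptors, stood at 0.33 and -0.01 in the ovary and -0.85 and -0.55 in the uterus, none called. Ltf, the estrogen-induced lactotransferrin, stood at 1.30 in the ovary (adjusted p = 0.368) and rose in the uterus (2.63, adjusted p = 0.0261; difference -1.33 ± 0.82). Gabrp, a gamma-aminobutyric acid receptor subunit of the same list, differed by -1.81 ± 0.44 (adjusted p = 0.120), and Igf1, a growth factor that estrogen induces in uterine stroma, by 1.93 ± 0.61 in the other direction (adjusted p = 0.192).

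Fat and blood genes, which a dissection can carry along, were compared in the same way. Adipoq, the adipocyte hormone adiponectin, had 124, 18.1 and 61.6 CPM in ovary ARE+/- libraries, against 20.4, 17.5 and 9.82 CPM in ovary WT libraries. Its uterus levels were 46.6, 31.7 and 24 CPM in ARE+/- and 4.59, 6.78 and 4.08 CPM in WT libraries, and the difference was -0.63 ± 0.81 (adjusted p = 0.759). Plin1, a lipid droplet protein, differed by -1.38 ± 0.60 (adjusted p = 0.311), and Hba-a2, an alpha globin, by 0.83 ± 0.67 (adjusted p = 0.599). The 11 adipocyte genes together had 2587, 927 and 1115 CPM in ovary ARE+/- libraries, against 444 to 794 CPM in WT ovary. Their uterus sums were 486 to 802 CPM in ARE+/-, against 127 to 166 CPM in WT. These sums were higher in ARE+/- in both organs without overlap. Among single genes tested, 25.3% had no overlap in the ovary and 27.4% in the uterus. Of the 11 genes, 1 rose in the ovary and 7 in the uterus, where 1.93% and 5.82% of all genes did. The part of the adipocyte genes in other differences was not tested. Mup14, a major urinary protein gene, had 168, 24 and 32 counts in ovary ARE+/- and 92, 38 and 38 counts in uterus ARE+/- libraries, against 0 counts in all 6 WT libraries. Taking 3 counts over each WT group as the limit gave ratios of 71.1-fold in ARE+/- ovary and 54.8-fold in ARE+/- uterus. Mates were counted singly, so a fragment can add more than 1 count and these ratios overstate the lower bound. The ARE+/- counts were taken as exact, although replicate 1 held most of them in the ovary. No difference between the organs can be estimated from these ratios. Its near-identical family members share reads.

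The ARE-/- libraries, which the comparison did not use, give further values of the same genes, scaled over all 18 libraries. The WT values set beside them are scaled over the 12 libraries of the comparison. Values near the edge of a WT range may therefore not keep their place on a common scale. Ltbp2 had 27.8, 32.2 and 17 CPM in ovary ARE-/- replicates 2, 3 and 6 and 35, 23 and 46.1 CPM in uterus ARE-/- replicates 1, 2 and 3. Cxcr4 had 13.2, 20.8 and 7.91 CPM in ovary ARE-/- and 11.6, 18.3 and 31.9 CPM in uterus ARE-/- libraries. All 3 uterus ARE-/- values of both genes were above the uterus WT values given above. Arhgap20 stood at 6.71, 6.65 and 8.03 CPM in ovary ARE-/- and 6.05, 20.1 and 8.0 CPM in uterus ARE-/- libraries, with all 3 uterus values below those of uterus WT. Not all called genes stood apart in this way. Lix1 had 2.14, 2.31 and 4.73 CPM in uterus ARE-/- libraries, against 1.95, 3.87 and 2.22 CPM in uterus WT. In uterus ARE-/- replicate 1, Mitf at 19 CPM and Gatm at 12.6 CPM lay within the uterus WT range. Ehd2 had 289, 228 and 118 CPM in uterus ARE-/- libraries, against 279, 251 and 287 CPM in uterus WT. Itga5 had 228 CPM in uterus ARE-/- replicate 1, and 105 and 107 CPM in uterus ARE-/- replicates 2 and 3. That library also had 143 CPM of Inha and 34.1 CPM of Cyp11a1, against 9.35 and 9.21 CPM of Inha in the other two uterus ARE-/- libraries, and the part of such transcripts was not tested. With these 6 libraries in the fit, which then share 1 estimate of the spread with the rest, 1 gene was called between the organs.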

How the data were processed

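Total RNA was extracted with a Zymo kit and sequenced with paired ends on an Illumina instrument, per the labels' protocols. The deposited tables, 1 per organ, hold raw gene counts as whole numbers; the authors ran featureCounts 2.0.4 with the GENCODE M32 gene models, per the file headers. Mates were counted singly, reads that map to several places or overlap several genes were counted for each, and no strand option was set, so 68.1% to 72.5% of counts from 1 to 20 were even and copies or overlapping genes share reads. The submitters' processing notes name STAR, DESeq2 and the build mm10, while GENCODE M32 belongs to a later build; gene coordinates are those of the files' annotation, and promoter coordinates are GRCm38.p6. The authors' likelihood-ratio tables were not used.

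The tables were joined on the gene ID (57010 IDs, 52029 with a symbol). The counts of 12 libraries were analysed in R 4.3.3 with edgeR 4.0.16. This used filterByExpr, TMM factors (0.913 to 1.06), 1 mean per group and the robust quasi-likelihood F-test, with Benjamini-Hochberg adjustment over 25552 genes and a threshold of 0.05. The common biological coefficient of variation was 0.300. The contrast was (ovary ARE+/- minus ovary WT) minus (uterus ARE+/- minus uterus WT). Standard errors are the log2 value over the square root of F. The script was tested on simulated counts. Alternatives used RLE scaling, scaling within an organ, other filters, all 18 libraries, each organ by itself, no robust estimation, replicate blocks, DESeq2 1.42.0, limma 3.58.1 voom with quality weights, and each library left out. Joining uterus WT replicates 1 and 3 into 1 library was chosen after seeing the data.

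The comparison, the 46 gene lists (562 genes, of which 535 could be tested) and the fixed genes were chosen with earlier results of these data known. Named genes are Ifng, a fixed set, the 12 largest positive and 12 largest negative differences among called genes with a symbol that is not a Gm, Rik or pseudogene name, at least 1 CPM in some group and at least 10 counts per organ (15 and 23 genes were eligible), and called list members; a few of these are not reported here. Mitf, Lpcat2, Snhg11, AU020206, Lamb1, Thbs1, Gadd45b, Etv5, AA467197, Ovgp1, Col3a1, Sparc, Actg2, Myh11, Prf1, Nkg7, Trbc2, Tgtp1, H2-T23, Gabrp and Igf1 were chosen after their values were seen. Lists are described by counts and medians, with no test of a list.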

Additional observations from a re-analysis of the deposited data

Results flagged for a closer look

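The effect of ARE+/- on these genes differed between the ovary and the uterus by the test of the difference itself, with values given as ovary effect minus uterus effect on the log2 scale. The difference was negative for Mir147 (-5.17), Slfn4 (-3.99), Aldh1a3 (-3.70), Ltbp2 (-2.82), Dnah12 (-2.81), Lix1 (-2.56), Slc7a3 (-2.51), Cxcr4 (-2.14), Gatm (-2.05), Art4 (-2.0), Susd3 (-1.96), Pdk4 (-1.86), Gadd45b (-1.86), Snhg11 (-1.82), AU020206 (-1.74), Mitf (-1.72), Lpcat2 (-1.62) and Thbs1 (-1.49). It was positive for Medag (1.99), Arhgap20 (1.75), Fbn1 (1.68), Tubb6 (1.44), Ramp2 (1.39), Dnah5 (1.39), Ehd2 (1.32), Aplnr (1.32), Cavin3 (1.19), Hspb8 (1.15), Itga5 (1.14), Fam43a (1.06) and Lamb1 (0.89). Whether the uterus libraries that stand apart, the cycle stage or the oviduct in the ovary samples play a part in them was not tested.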

How the results depend on the processing

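Under the other scalings, the stricter filter and no robust estimation the count of genes differing between the organs was 45 to 63, against 46. It was 83 with no filter on low counts, 994 with DESeq2, 1474 with limma voom and quality weights, 13 with uterus WT replicates 1 and 3 as 1 library and 1 with all 18 libraries; leaving out 1 library gave 9 to 1736. The 575 genes called in the ovary became 1431 with DESeq2, 1165 with voom and 282 with all 18 libraries, and 94 to 910 without 1 library. The 2673 called in the uterus became 4385 with DESeq2, 6242 with voom, 1013 with all 18 libraries, 922 with the uterus by itself and 753 with uterus WT replicates 1 and 3 as 1 library, and 754 to 5524 without 1 library. The 355 higher in both organs became 618 with DESeq2, 191 with all 18 libraries and 189 with uterus WT replicates 1 and 3 as 1 library, and 84 to 461 without 1 library. The causes were not tested. Where 1 library was left out, its group's remaining pair was assumed to vary like the other groups.

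Equal replicate numbers were not taken to pair the samples, since the labels name no shared mouse and the correlations of deviations from group means did not all exceed 0.1. Over 15 same-numbered pairs they were -0.14 to 0.23, and 5 of 12 libraries correlated best with their own number. The 5 pairs of an ovary and a uterus of the same genotype, which could come from 1 mouse, were all positive, at 0.090 to 0.23, with 3 over 0.1. With the replicate number as a block the counts were 0 (2812 genes at an unadjusted p under 0.05) between the organs, 48 in the ovary, 1746 in the uterus and 47 higher in both. With equal numbers of a genotype taken as 1 animal in both organs, the block gave 21 genes, with 10 of the 46 among them and 36 not called. Genes that kept their call included Ltbp2, Mitf, AU020206, Snhg11, Aplnr, Slfn4, Fbn1 and Gatm. Genes that lost it included Cxcr4, Art4, Arhgap20, Itga5, Ehd2, Lpcat2 and Lamb1. Whether equal numbers mark 1 mouse is not given in the sources used here.

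Differences of uncalled genes near 0 changed sign. With voom, Irf1 was 0.050, Cxcl10 0.044 and Lhcgr 0.52. With the animal block, Irf1 was 0.064, Cxcl10 0.18, Gbp2 0.038, H2-K1 0.022 and H2-Aa 0.0031, and with the joined uterus WT libraries H2-Aa was 0.050. Without 1 library the ranges were -0.24 to 0.12 for Irf1, -0.57 to 0.14 for Cxcl10, -0.13 to 0.47 for Iigp1, -0.24 to 0.11 for H2-K1, -0.24 to 0.15 for H2-Aa and -1.47 to 0.67 for Lhcgr. Of the 46 genes called, 0 changed sign in any of the 23 alternatives in which they were tested (45 were tested in all 23). Of the called genes, Ltbp2 was called in 22 of 23 alternatives, Mitf and AU020206 in 21, and Cxcr4, Art4, Susd3, Itga5, Arhgap20, Ehd2 and Snhg11 in 20. Depth limits 23 of the 81 genes named or listed for description, which had under 100 counts in every library of at least 1 group. They include Ifng, Ido1, Cxcl9, Cxcl11, Ccl5, Cd8a, Gzmb and Prf1, and the called genes Mir147, Dnah5, Dnah12, Slfn4, Aldh1a3, Slc7a3 and Art4.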
